A study of Homo sapiens with 12 samples.

Results

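Chromosome 20 was examined along its short arm (20p) and long arm (20q) in HepG2 and Huh7, human cell lines labelled as hepatocellular carcinoma lines. The members were all intervals that the 4 deposited ChIP-seq peak lists place on chromosome 20, sorted into bins of 1 Mb by the summit of each interval. There were 10511 such peaks among 164693 in all, 7144 with anti-HOXA13 and 2290 with anti-HA in HepG2, and 289 with anti-HOXA13 and 788 with anti-HA in Huh7. The chromosome was chosen by its peak counts, which differed between lines and arms, so those counts are a description and carry no test.

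The anti-HOXA13 libraries came from untagged HepG2 and Huh7 cells. The anti-HA libraries came from HepG2 and Huh7 cells stably transfected with HOXA13 carrying an HA epitope tag, so the antibody and the added protein changed together. The labels name no promoter for the transgene, no clone and no empty-vector control. Cells of all groups were fixed in 1% formaldehyde and their chromatin was sheared to about 200 bp. Each list rests on 1 ChIP library and the input of the same cells, so no difference between lists has a replicate check. Intervals below are 95% intervals and cover counting error only. The 4 IgG libraries were not analysed here, and peak lists hold no expression by which the lines' identity could be checked. The series title concerns HOXA13 overexpression, chromosomal instability and liver tumours.

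HOXA13 is a homeodomain transcription factor of limb, gut and genital development that is little expressed in normal adult liver. A peak caller marks a place where ChIP fragments pile up beyond the number expected from input, the same chromatin sequenced without antibody. Sequence present in extra copies gives more fragments in ChIP and in input alike, and HepG2 is known to carry extra copies of chromosome 20. The chromosome carries the genes of the hepatocyte factors FOXA2, on the short arm, and HNF4A, on the long arm, and that of the mitotic kinase AURKA. No gene annotation or sequence of the build of the lists, GRCh37, was used here, so regions are given by position and without gene names.

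The longest stretch of chromosome 20 without a peak in any list ran from 26318894 to 29428839 and separated the arms. It was 3109946 bp long, against 188860 bp for the next longest. The peaks of 20p lay between 63283 and 26318893 and those of 20q between 29428840 and 62965371.

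The HepG2 lists were dense on chromosome 20, and the Huh7 lists were nearer to the median autosome but above it. HepG2 anti-HOXA13 held 119 peaks per Mb, 5.72 times (5.58 to 5.85) the median autosome, and HepG2 anti-HA held 38.3 per Mb, 3.95 times (3.79 to 4.12). Huh7 anti-HOXA13 held 4.83 per Mb, 1.31 times (1.17 to 1.47), and Huh7 anti-HA 13.2 per Mb, 1.23 times (1.15 to 1.32). Chromosome 20 ranked 1 of 22 autosomes in both HepG2 lists, and in Huh7 it ranked 3 with anti-HOXA13 and 4 with anti-HA. It makes up 2.13% of the covered length but 9.92% of the HepG2 anti-HOXA13 list.

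How dense chromosome 20 was in HepG2 depended on which peaks were kept. At equal list length, 10414 peaks each by q, the ratio to the median autosome rose to 11.1 in HepG2 anti-HOXA13 and fell to 1.59 in HepG2 anti-HA. With strong peaks alone, those with −log10 q of 5 or more, it was 1.34 (0.537 to 2.75) with anti-HOXA13, on 7 peaks, and 1.5 (1.31 to 1.71) with anti-HA. Strong HepG2 anti-HA peaks stood at 3.61 per Mb on chromosome 20 and 2.65 on the other autosomes. Leaving out those on raised input, defined below, they stood at 1.22 and 1.86. The cut for raised input was the same on every chromosome, whatever its copy number. It took 66.2% of these strong peaks on chromosome 20 and 31.8% over the list, and its part in the change of direction was not tested. Of the HepG2 anti-HOXA13 peaks on chromosome 20, 1101 (15.4%) reached q of 0.05, where 10.3% of the whole list did. Of the HepG2 anti-HA peaks there, 830 (36.2%) reached it, where 51.2% of the whole list did. In Huh7 the count was 22 (7.61%) with anti-HOXA13, against 9.31% of the list, and 57 (7.23%) with anti-HA, against 6.68%.

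The arms differed most in Huh7, where 20p was the denser arm with either antibody. Huh7 anti-HOXA13 held 196 peaks on 20p and 93 on 20q, which was 7.47 and 2.77 per Mb and a ratio of 2.69 (2.09 to 3.48). Huh7 anti-HA held 516 and 272 peaks, 19.7 and 8.11 per Mb, a ratio of 2.42 (2.09 to 2.82). In HepG2 anti-HOXA13 the direction was the opposite, with 2482 peaks on 20p and 4662 on 20q, or 94.5 and 139 per Mb, a ratio of 0.680 (0.647 to 0.714). HepG2 anti-HA held 1046 and 1244 peaks, 39.8 and 37.1 per Mb, a ratio of 1.07 (0.988 to 1.17) whose interval spanned 1. Without raised input it was 1.144 (1.045 to 1.252), and without the outer 1 Mb of each arm 1.092 (1.002 to 1.189). Both of these intervals lay above 1. It was 1.068 (0.929 to 1.227) with q of 0.05 or less and 1.053 (0.966 to 1.147) with peaks within 1 kb counted once. Those intervals spanned 1. Among Huh7 anti-HOXA13 peaks with q of 0.05 or less, 9 lay on 20p and 13 on 20q, a ratio of 0.884 (0.334 to 2.24). Above that q it was 2.99 (2.29 to 3.93).

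**Figure D1:**
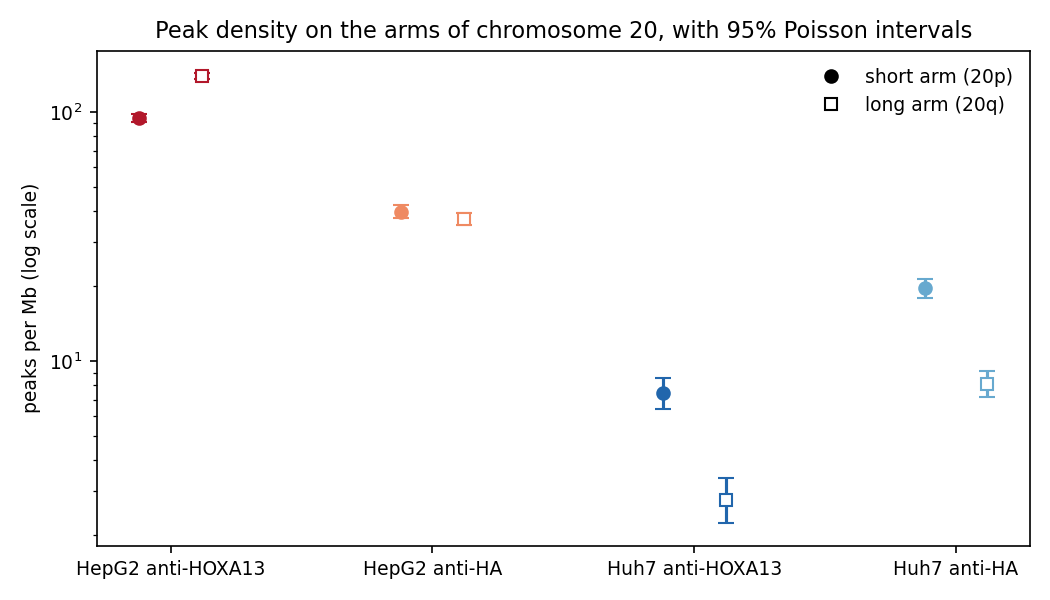
Peaks per Mb (log axis) on 20p (filled circles) and 20q (open squares) in each list, with 95% Poisson intervals. The short arm lies above the long arm in both Huh7 lists, at 7.47 against 2.77 and 19.7 against 8.11 per Mb, and below it in HepG2 anti-HOXA13, at 94.5 against 139.

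Within HepG2 the peaks formed blocks several Mb long. Over the 61 bins with a peak of any list, the HepG2 anti-HOXA13 count ran from 2 to 509 with a median of 81, and that of HepG2 anti-HA from 4 to 85 with a median of 33. The bin from 59 to 60 Mb, with 509 anti-HOXA13 peaks, held the most of all autosomal bins of that list, whose median was 17.5. At least 2 times the autosomal median was reached by 47 of the 61 bins with anti-HOXA13 (77.0%), where 17.9% of all autosomal bins did, and by 50 (82.0%) with anti-HA, where 19.7% did. The 3 fullest anti-HOXA13 bins were also among the fullest with anti-HA, 59 to 60 Mb with 509 and 75 peaks, 24 to 25 Mb with 391 and 85, and 41 to 42 Mb with 389 and 67, a count that 2 other anti-HA bins shared. At most 0.5 times the autosomal median was found in 4 bins with anti-HOXA13 (6.56%, where 12.5% of all autosomal bins had so few) and in 1 with anti-HA (1.64%, where 27.3% had).

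The largest step between neighbouring windows of 5 Mb lay at 37 Mb in both HepG2 lists. The 5 bins before it held 2, 5, 6, 12 and 32 anti-HOXA13 peaks, and the 5 after it 107, 295, 168, 267 and 389. With anti-HA the bins before the step held 21, 17, 4, 10 and 17 peaks and those after it 41, 57, 48, 50 and 67. In neither list did a bin before the step reach any bin after it. The mean rose from 11.4 to 245.2 per Mb with anti-HOXA13 and from 13.8 to 52.6 with anti-HA.

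Other blocks were described with bounds set after the counts were seen. From 42 to 53 Mb the HepG2 anti-HOXA13 density fell back to 77.3 per Mb (72.2 to 82.6), and from 53 to 61 Mb it stood at 283 (271 to 295), the highest of the 10 blocks. On 20p it stood at 51.9 (47.8 to 56.4) from the tip to 11 Mb, 95 (89.1 to 101) from 11 to 21 Mb and 219 (205 to 234) from 21 to 25 Mb. HepG2 anti-HA followed with 31.3, 58.9, 28.8, 44.1 and 63 per Mb in the same 5 blocks. Between the HepG2 lists, r of the counts over all 61 bins was 0.78 (rho 0.78). The bins share copy number, mappability and base composition with their neighbours and are not replicates.

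Huh7 peaks were sparser on most of 20q beyond 37 Mb, though not evenly. Huh7 anti-HA held 4.20 per Mb from 37 to 42 Mb, 8.73 from 42 to 53 Mb, 1.62 from 53 to 61 Mb and 11.7 from 61 to 63 Mb. The largest step lay at 37 Mb in Huh7 anti-HA, where HepG2 rose, and went down from 15.8 to 4.20 per Mb. The bins before it held 19, 24, 13, 16 and 7 peaks and those after it 6, 3, 6, 6 and 0. In Huh7 anti-HOXA13 the largest step lay at 35 Mb, from 8 to 3.40 per Mb, with 4 to 12 peaks per bin before it and 1 to 5 after it. The densest anti-HA bins were on the short arm. Huh7 anti-HA held 34 peaks in each of the bins from 6 to 7 and 7 to 8 Mb, followed by 27 from 14 to 15 Mb. Huh7 anti-HOXA13 held 15 from 5 to 6 Mb, 12 from 32 to 33 Mb and 11 in 4 bins of 20p, among them 3 to 4 Mb. At least 2 times the autosomal median was reached by 24 of 61 bins (39.3%) with anti-HOXA13, where 26.3% of all autosomal bins did, and by 19 (31.1%) with anti-HA, where 19.8% did. At most 0.5 times that median was found in 16 bins with anti-HOXA13 (26.2%, where 34.5% of all autosomal bins had so few) and in 12 with anti-HA (19.7%, where 29.7% had). The bin from 41 to 42 Mb, among the 3 highest in HepG2, held 0 peaks of either Huh7 list. The longest run of 20q without a summit was 3.10 Mb in Huh7 anti-HOXA13, from 44.6 to 47.7 Mb, and 2.86 Mb in Huh7 anti-HA, from 57.6 to 60.5 Mb. Counts of the Huh7 lists correlated over the 61 bins with r of 0.68 (rho 0.75), mostly along 20q, where r was 0.68 over 34 bins against 0.25 over the 27 bins of 20p.

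**Figure D2:**
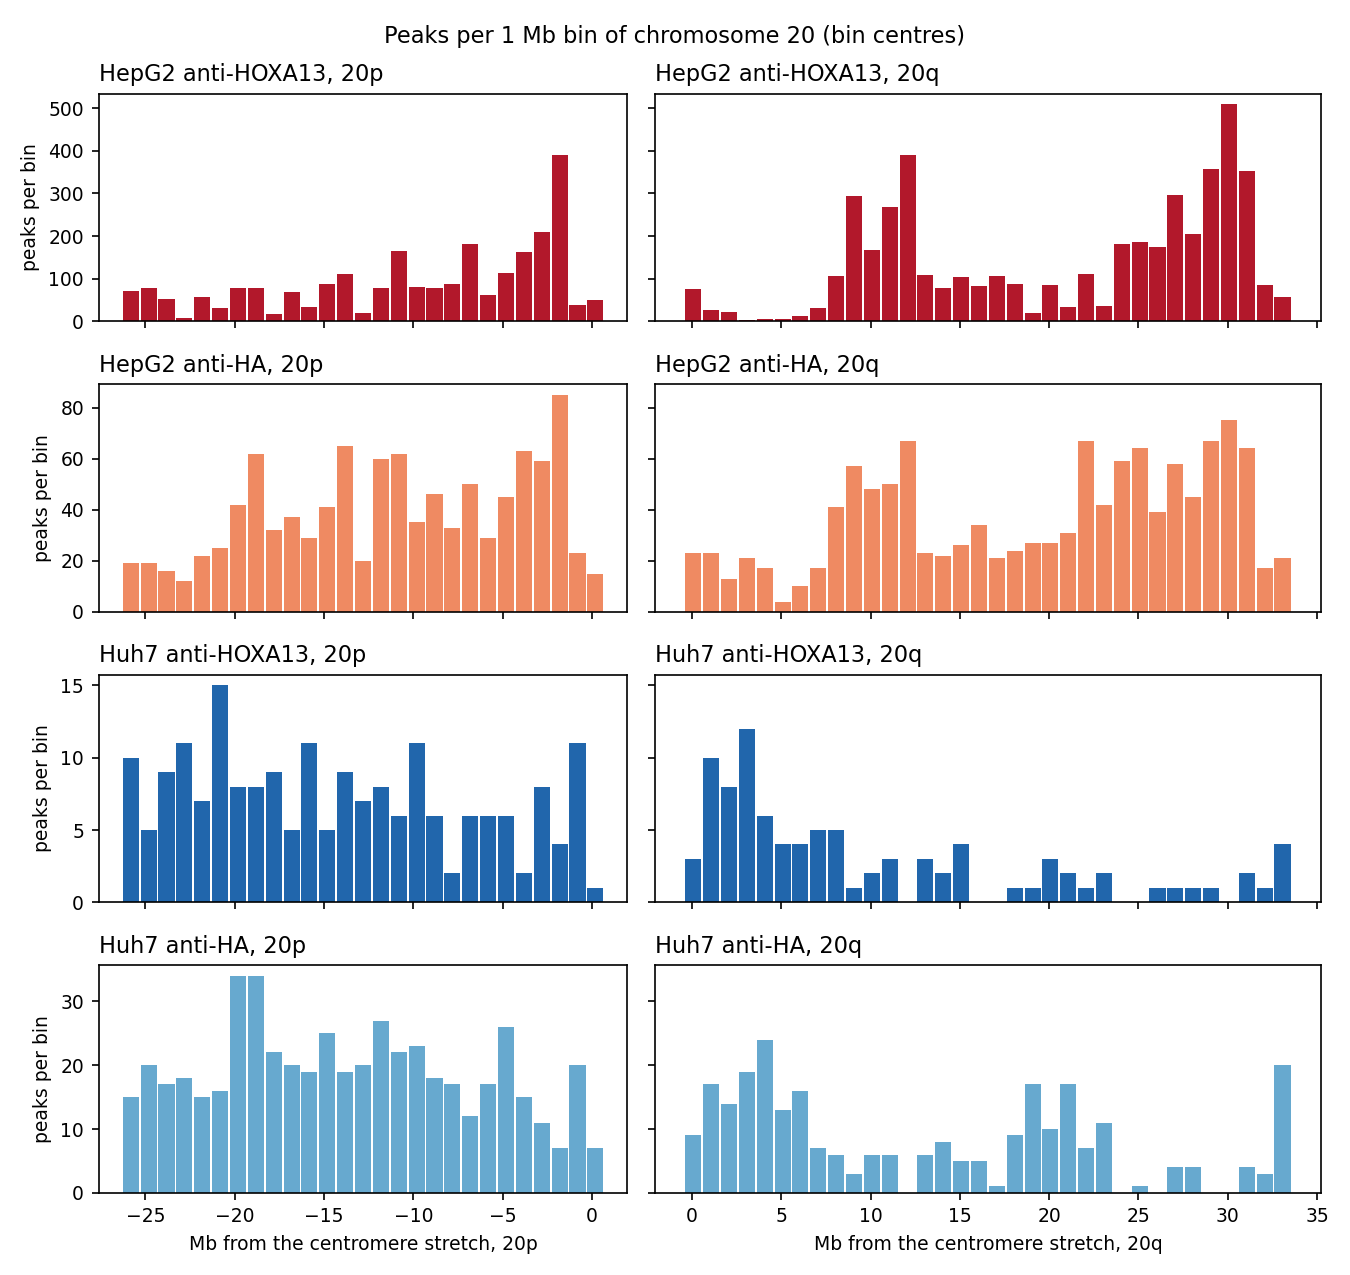
Peaks per 1 Mb bin (bars, linear axis from 0) against the distance of the bin centre from the peak-free centromere stretch, for 20p (left) and 20q (right), 1 row per list. HepG2 counts climb on 20q after the step at 37 Mb and reach 509 and 75 in the same bin of the outer long arm, where both Huh7 lists hold 0.

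Over all peaks, the outer long arm was dense in HepG2 and sparse in Huh7. From 53 to 61 Mb, the 8 bins held 182, 185, 175, 297, 205, 358, 509 and 352 peaks in HepG2 anti-HOXA13 and 59, 64, 39, 58, 45, 67, 75 and 64 in HepG2 anti-HA. The Huh7 anti-HOXA13 counts there were 0, 0, 1, 1, 1, 1, 0 and 2 peaks, and those of Huh7 anti-HA 0, 1, 0, 4, 4, 0, 0 and 4. Every HepG2 count in the block was above every Huh7 count, but HepG2 counts were also the higher in most other bins of the chromosome. The lists differ in length, with 71999 and 34849 peaks in HepG2 (anti-HOXA13, then anti-HA) on chromosomes 1 to 22, X and Y. In Huh7 they hold 10414 and 28809 there. Set against the rest of 20q in the same list, the density was 3.01 times (2.84 to 3.19) in HepG2 anti-HOXA13, 1.94 times (1.73 to 2.18) in HepG2 anti-HA. In Huh7 anti-HA it was 0.160 times (0.0842 to 0.279), and the anti-HOXA13 value of that line was 0.220 times (0.0786 to 0.499). The bounds of the block were set after the counts were seen. With peaks of q of 0.05 or less the anti-HA ratios were 1.18 (0.951 to 1.46) in HepG2 and 0.751 (0.184 to 2.30) in Huh7, both spanning 1. The anti-HOXA13 ratios were then 3.39 (2.93 to 3.92) in HepG2 and 0.266 (0.00622 to 1.80) in Huh7, where the interval also spanned 1. Between the lines, the anti-HOXA13 counts of the 61 bins had r of -0.48 (rho -0.54) and the anti-HA counts had r of -0.21 (rho -0.23). By arm, r was 0.086 over the 27 bins of 20p and -0.64 over the 34 bins of 20q with anti-HA. With anti-HOXA13 it was -0.39 and -0.52.

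The pileup expected from input was lower where counts were higher in HepG2, and the relation was weaker and of the other sign in Huh7. It could be solved from the deposited fold and p of each peak, and is known only under peaks. Its floor, the genome background of the list, was 1.73 fragments with anti-HOXA13 and 2.62 with anti-HA in HepG2, and 2.602 with anti-HOXA13 and 2.61 with anti-HA in Huh7. At that floor, p of 0.01 needed a ChIP pileup of 5, 7, 9 and 7 fragments in the same order. In HepG2 anti-HOXA13, 34.8% of the chromosome 20 peaks stood on the floor, where 60.8% of the whole list did, so expected pileup was more often above it on this chromosome. The shares were 15.9% and 20.7% for HepG2 anti-HA. In Huh7 anti-HA they were 8.25% and 19%, and for the anti-HOXA13 list of that line 9.0% and 15.9%.

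Along the chromosome, HepG2 peaks were many where expected pileup was low. In HepG2 anti-HOXA13 the median expected pileup was 3.03 from 32 to 37 Mb, with no peak on the floor, and 1.73 from 53 to 61 Mb, with 54.7% of peaks on it. In HepG2 anti-HA it was 8.63 and 2.77 in these blocks. Huh7 expected pileup was also higher in the first of the blocks, at 4.06 against 2.80 with anti-HOXA13 and 4.78 against 3.11 with anti-HA, but there the first block had more peaks. The Huh7 values of the second block rest on 6 anti-HOXA13 and 13 anti-HA peaks. Over bins, count and median expected pileup had r of -0.76 (rho -0.90) for the HepG2 anti-HOXA13 list, and for that of anti-HA -0.59 (rho -0.79), each over 61 bins. For the Huh7 lists r was 0.20 (rho 0.38) over 55 bins with anti-HOXA13, and with anti-HA 0.50 (rho 0.53) over 56 bins. Bins without a peak of the list, 6 and 5 of them, have no expected pileup and were left out. The median count over all 61 bins was 4 with anti-HOXA13 and 14 with anti-HA in Huh7, so many bin medians rest on few peaks. The median expected pileups of the HepG2 lists, which come from different input libraries, had r of 0.82 (rho 0.95). The part of input depth in the peak counts was not tested.

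**Figure D3:**
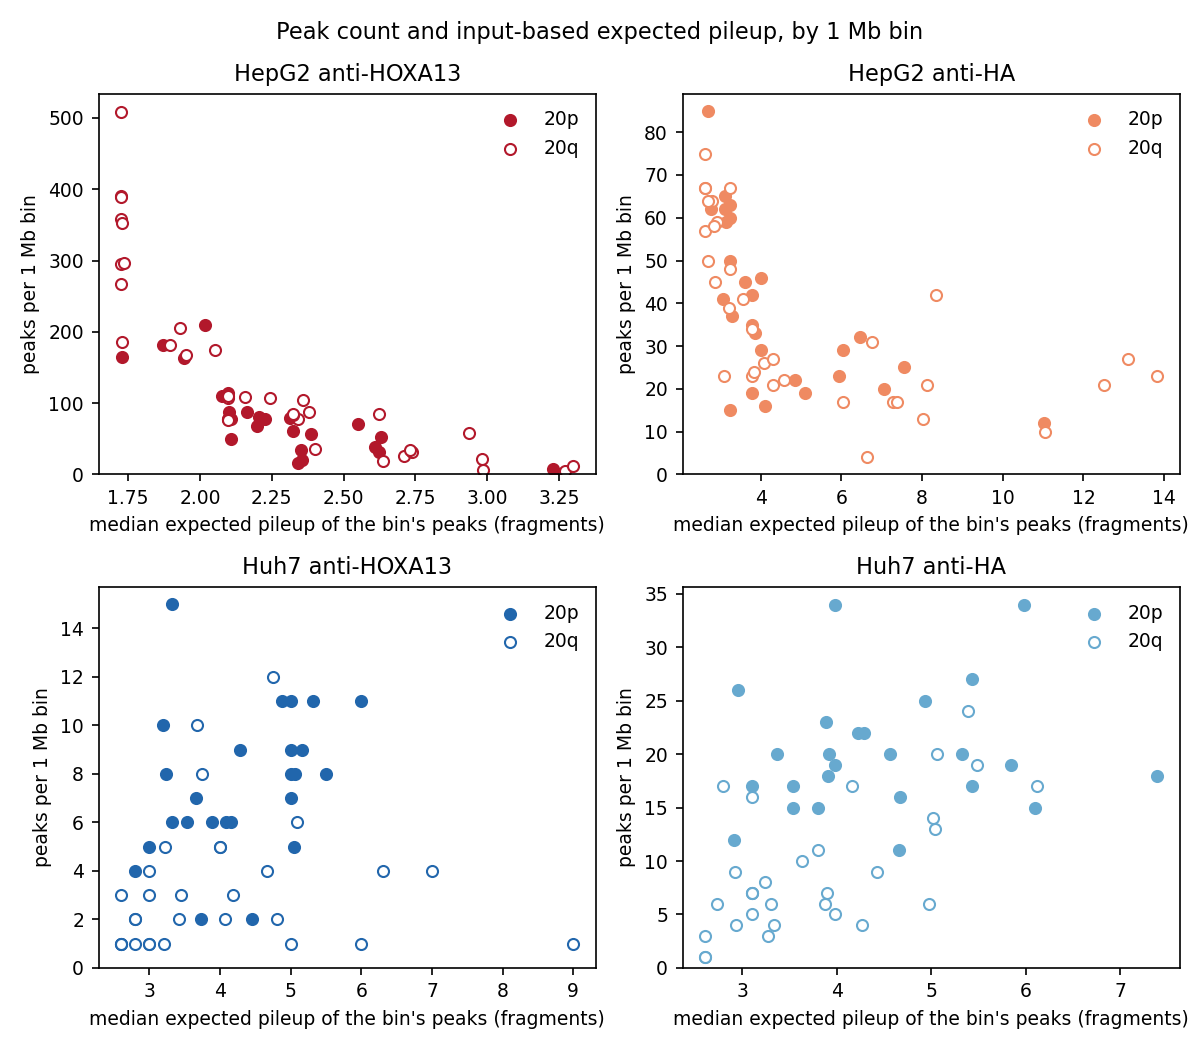
Peaks per 1 Mb bin against the median expected pileup of the bin's peaks (fragments), 1 panel per list, with 20p filled and 20q open. In HepG2 the fullest bins sit at the lowest expected pileup, with 509 peaks at 1.73. In Huh7 the points scatter, with r of 0.20 for anti-HOXA13 and 0.50 for anti-HA.

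Strong peaks were mostly those of HepG2 anti-HA, and few of that list's strong peaks lay in its densest blocks of 20q. HepG2 anti-HA held 216 strong peaks on chromosome 20 (9.43%, where 21.6% of the whole list was strong), 93 on 20p and 123 on 20q, or 3.54 and 3.67 per Mb. HepG2 anti-HOXA13 held 7 (0.0980%, where 0.753% of the list was strong), 0 on 20p and 7 on 20q. The 0 of 2482 on 20p allows a share of up to 0.121%. Huh7 anti-HOXA13 held 5, 3 on 20p and 2 on 20q (1.73%, against 2.55% of the list), and Huh7 anti-HA 1, on 20p (0.127%, against 0.399%). In HepG2 anti-HA the block from 53 to 61 Mb held 8 strong peaks, 1.00 per Mb, and that from 37 to 42 Mb held 6, 1.20 per Mb. From 42 to 53 Mb, where weak peaks were fewer, there were 61, or 5.55 per Mb. The densities of strong and of all HepG2 anti-HA peaks thus differed in direction in the outer block, at 0.222 times (0.0936 to 0.452) and 1.94 times the rest of 20q. Of the 90 strong HepG2 anti-HA peaks of 20q on raised input, defined below, 3 lay in the block, and of the 33 without it 5 did. No ratio to the rest of 20q was computed for those without it. Of the 7 strong HepG2 anti-HOXA13 peaks, 5 lay in that block, at 7.98 times (1.31 to 83.8) the rest of 20q.

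Many of the strong HepG2 anti-HA peaks lay on raised input, here an expected pileup over 3 times the list's floor. Raised input lay under 143 of the 216 (66.2%, where 31.8% of all strong peaks of the list had it), with a median fold of 3.63. The other 73 had a median fold of 6.02 and a density of 1.22 per Mb, against 1.86 on the other autosomes. With raised input kept, the densities of strong peaks were 3.61 and 2.65, and the part of the cut in this difference was not tested. Over all HepG2 anti-HA peaks of the chromosome it lay under 349 (15.2%, where 17.3% of the list had it). It lay under 17 HepG2 anti-HOXA13 peaks (0.238%, against 1.82% of the list). In Huh7 it lay under 33 anti-HOXA13 peaks (11.4%, against 8.83%) and 100 anti-HA peaks (12.7%, against 8.13%). Without it, 20p held 40 strong HepG2 anti-HA peaks and 20q 33, which was 1.52 and 0.984 per Mb. The block from 53 to 61 Mb held 5 of them, 0.625 per Mb. A fold of 5 or more was reached by 90 HepG2 anti-HA peaks (3.93%, where 10.9% of the list reached it), 44 on 20p and 46 on 20q. It was reached by 9 HepG2 anti-HOXA13 peaks, all on 20q (0.126%, against 0.124% of the list), by 4 Huh7 anti-HOXA13 peaks (1.38%, against 1.98%) and by 0 of 788 Huh7 anti-HA peaks, which allows up to 0.381%, where 0.0764% of the list reached it.

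The highest folds belonged to HepG2 anti-HA regions on both arms. The highest, 50283462 to 50284149, stood at 29.9-fold (26.2 to 34), on 231 fragments against 6.77 expected. Its neighbour, 50282126 to 50282957, stood at 17.5-fold (14.8 to 20.5). The former overlapped a Huh7 anti-HA peak of 3.75-fold, and neither overlapped an anti-HOXA13 peak. At 58532545 to 58533174, inside the outer block, the fold was 23.6 (19.2 to 28.7) from a pileup of 99, with no peak in the other lists. On 20p, 21069988 to 21070606 stood at 23.1-fold (19.7 to 26.9) and overlapped a HepG2 anti-HOXA13 peak of 3.03-fold. The others on 20p were 8137034 to 8137911 with 20.2-fold (17.2 to 23.5) and 4022346 to 4022862 with 17.9-fold (14.6 to 21.6), both absent from the other lists. None of these 6 peaks had raised input.

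**Figure D4:**
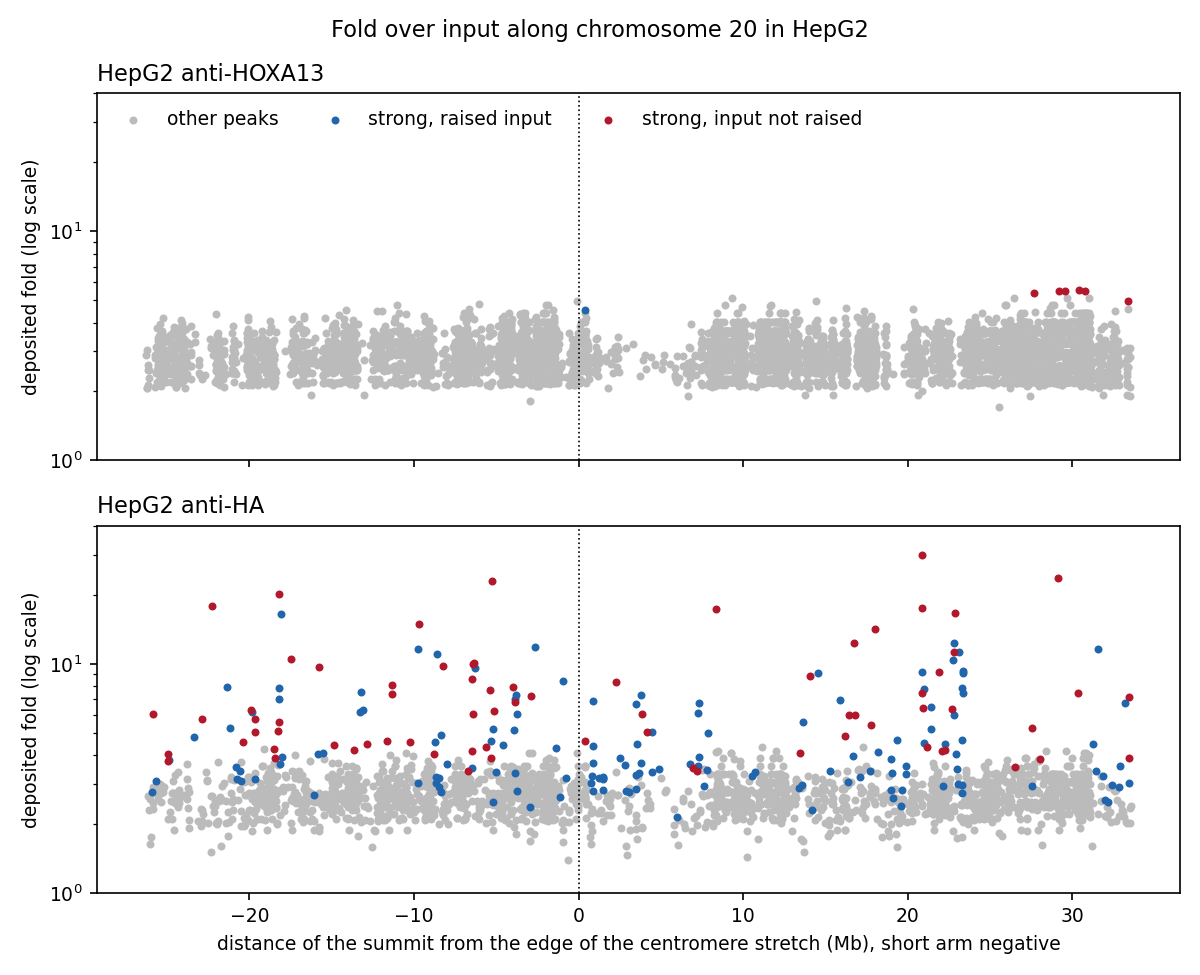
Deposited fold (log axis) of every chromosome 20 peak of the HepG2 lists against distance of its summit from the centromere stretch, with strong peaks in colour by raised input. HepG2 anti-HOXA13 peaks stay at or under 5.56-fold, while HepG2 anti-HA reaches 29.9-fold in scattered regions of both arms.

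The highest HepG2 anti-HOXA13 peaks all lay on the outer long arm and on few fragments. The first, 59858380 to 59858523, had 5.56-fold (3.46 to 8.53), on 19 fragments against 2.59 expected. The regions 58624559 to 58624797, 58972246 to 58972385 and 60170052 to 60170386 each had 5.50-fold (3.17 to 8.98) from 14 fragments on the floor of 1.73. The fifth, 57125296 to 57125517, had 5.36-fold (3.09 to 8.75). None of the 5 overlapped a peak of another list, although their bins held 45 to 75 HepG2 anti-HA peaks each.

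In Huh7 anti-HOXA13 the 2 highest peaks lay near opposite ends of the chromosome. The region 62595926 to 62597648 was 1723 bp wide, the widest peak of the 4 lists on chromosome 20, and had 7.96-fold (5.71 to 10.8). Near the tip of 20p, 786433 to 786648 had 7.36-fold (5.20 to 10.1). The regions 23249474 to 23249740, with 5.28-fold (4.07 to 6.73), and 32324812 to 32325100, with 4.89-fold (3.69 to 6.37), had raised input, and 50837567 to 50837796 had 5.01-fold (3.21 to 7.52) without it. None of these 5 overlapped a peak of another list. Huh7 anti-HA reached no more than 4.19-fold, at 57582182 to 57582554 (2.50 to 6.66), which lay alone, and at 19996565 to 19996826 (3.01 to 5.69), its only strong peak, where HepG2 anti-HA had 9.58-fold and both had raised input. Of its next highest peaks, 62273484 to 62273598 with 4.04-fold, 4667043 to 4667225 with 4.00-fold and 42136346 to 42136597 with 3.99-fold, all overlapped HepG2 anti-HA peaks of 2.84- to 2.94-fold.

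Overlap between lists was counted as at least 1 shared bp. In HepG2, 218 of the 2290 anti-HA peaks overlapped an anti-HOXA13 peak (9.52%, 8.35 to 10.8%), where 4.95% of the whole anti-HA list did. From the other side 223 of the 7144 anti-HOXA13 peaks overlapped (3.12%, 2.73 to 3.55%), where 2.37% of that list did. The share of anti-HA peaks was 12.4% on 20q and 6.12% on 20p. HepG2 anti-HOXA13 peaks covered 2.43% of 20q, 1.56% of 20p and 0.358% of the other autosomes, so the length open to overlap moved with the share; its part was not tested. With q of 0.05 or less in both lists, 15 of 830 anti-HA peaks overlapped, and the share over the whole list at that setting was not computed. Of the 216 strong anti-HA peaks 6 overlapped (2.78%, 1.03 to 5.95%), where 5.61% of all strong peaks of the list did. The pair's best shared regions by rank of fold, 24321013 to 24321344 and 60106821 to 60107247, stood on 10 anti-HOXA13 and 12 anti-HA fragments each, with 4.04- and 4.03-fold in the former and 3.59-fold in the latter.

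Between the lines, 83 of the 788 Huh7 anti-HA peaks overlapped a HepG2 anti-HA peak (10.5%, 8.48 to 12.9%), where 8.85% of the Huh7 list did, and 82 of the 2290 HepG2 peaks did (3.58%, 2.86 to 4.43%), where 7.05% of the HepG2 list did. By arm it was 15.4% (11.4 to 20.3%) of the Huh7 peaks on 20q and 7.95% (5.76 to 10.6%) on 20p. Without the raised-input peaks of both lists, 18 of 688 Huh7 peaks overlapped, and with q of 0.05 or less in both lists 21 of 57 did. The shares over the whole list at these settings were not computed, so neither count can be called high or low for this chromosome. Strong HepG2 anti-HA peaks were shared in 29 of 216 cases (13.4%, 9.18 to 18.7%), close to the 13.9% of all strong peaks of that list. Without raised input it was 7 of 73 (9.59%), against 10.0% of the list. The anti-HOXA13 lists shared 10 of the 289 Huh7 peaks (3.46%, 1.67 to 6.27%, where 2.47% of the list did), and 10 of the 7144 HepG2 peaks (0.140%, where 0.364% of that list did). The best of these by rank of fold were 5620097 to 5620456, with folds of 3.23 (HepG2) and 3.77 (Huh7), and 14543402 to 14543782, with 3.46 and 2.94. Within Huh7, 2 of 788 anti-HA peaks overlapped an anti-HOXA13 peak (0.254%, where 0.639% of the list did) and 2 of 289 the other way (0.692%, where 1.77% did), at 17411985 to 17412205 and 3040223 to 3040451, both on 20p.

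Among 10169 merged regions of chromosome 20, none held a peak of every list and 2 held peaks of 3. At 29822521 to 29823159, close to the centromere stretch, the folds were 3.08 and 2.54 in HepG2 (anti-HOXA13, then anti-HA) and 2.33 with anti-HA in Huh7. At 23342182 to 23342877 they were 1.81, 2.36 and 3.12, on raised input in all 3. Across both line and antibody, 20 of the 7144 HepG2 anti-HOXA13 peaks overlapped a Huh7 anti-HA peak (0.280%, where 0.567% of the list did), and 20 of the 788 Huh7 peaks overlapped in turn (2.54%, where 1.53% did). The best of these by rank were 21976012 to 21976134, with folds of 3.87 (HepG2) and 2.68 (Huh7), and 7678421 to 7678587, with 3.23 and 2.65. Of the 2290 HepG2 anti-HA peaks 5 overlapped a peak of Huh7 anti-HOXA13 (0.218%, where 0.643% of the list did), which was also 5 of its 289 (1.73%, where 2.16% did), all on 20p. The best were 5494821 to 5495140, with 3.54 and 2.11, and 12831861 to 12832037, with 2.6 and 2.65. Of the 216 regions shared by exactly the HepG2 lists, 153 lay on 20q and 63 on 20p. The HepG2 anti-HOXA13 list itself had 4662 and 2482 peaks on these arms, and HepG2 anti-HA 1244 and 1046. Of the 18 shared by exactly HepG2 anti-HOXA13 and Huh7 anti-HA, 16 lay on 20p, the arm with 516 of the 788 Huh7 anti-HA peaks. The 79 regions shared by exactly the anti-HA lists were split into 40 on 20p and 39 on 20q.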

How the data were processed

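The file names pair each of the 4 ChIP libraries with its own cells' input. BWA, MACS2 and GRCh38 are named, per the submitters' processing notes, without versions or settings. All 4 lists instead carry the name of a decoy sequence used with GRCh37, so coordinates are taken as GRCh37, inferred from that name, and given 1-based. Per peak the authors deposited a ratio (fold over input at the summit), −log10 p, −log10 q, a score (10 times −log10 p in at least 99.97% of peaks) and another whole number, the summit offset. The lowest deposited −log10 p was 2.00. The labels state a depth of 50 M reads per sample.

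ChIP and expected pileups were solved from fold and p with MACS2's published formulas, for at least 99.99% of peaks in each list, with a tolerance of 0.001 on −log10 p. The ChIP was scaled by 0.812 in Huh7 anti-HOXA13. Densities use the length between the outermost peaks without stretches of 1 Mb or more that hold no peak. Shares have Clopper-Pearson, folds and densities Poisson, and density ratios within chromosome 20 conditional binomial intervals, all at 95%. Ratios to the median autosome have Poisson intervals of the chromosome 20 count, with the median held fixed. For a share with a count of 0, the upper limit given is 3 over the number of peaks. No test was made, since each condition had 1 library.

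The members, bins and rules were chosen with earlier results of these data known. Named regions were the 5 highest folds of each list, regions in 3 or more lists, and the 2 best of each pair of lists; the HepG2 anti-HA peak beside the highest was added after its value was seen. Gene lists planned for an annotation of the build were not run. Computation used scipy 1.17.1, numpy 2.4.6 and pandas 2.3.3 under Python 3.11.15, with matplotlib 3.10.9 for plots. Alternatives were other q, overlap, bin and list-length settings and leaving out raised input. Others left out the outer 1 Mb of each arm or counted peaks within 1 kb once. On simulated peaks, 100% of pileups and of 300 planted overlaps were recovered.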

Additional observations from a re-analysis of the deposited data

Results flagged for a closer look

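Over all peaks, the density of 20q from 53 to 61 Mb against the rest of 20q went in opposite directions in the lines. It was 3.01 (2.84 to 3.19) with anti-HOXA13 and 1.94 (1.73 to 2.18) with anti-HA in HepG2. In Huh7 anti-HA the ratio was 0.16 (0.0842 to 0.279), and the anti-HOXA13 value of that line was 0.22 (0.0786 to 0.499). With q of 0.05 or less the anti-HA ratios, 1.18 (0.951 to 1.46) in HepG2 and 0.751 (0.184 to 2.30) in Huh7, both spanned 1. Strong HepG2 anti-HA peaks were sparser there, at 0.222 (0.0936 to 0.452). Without raised input, 5 of the 33 strong HepG2 anti-HA peaks of 20q lay there. That was 0.625 per Mb, against 0.984 over all of 20q with the block included, and no ratio or interval was computed. Of the strong HepG2 anti-HOXA13 peaks of 20q, 5 lay there and 2 outside, a ratio of 7.98 (1.31 to 83.8). The bounds were set after the counts were seen and the difference between the lines was not tested.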

How the results depend on the processing

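Other settings gave 59 values, of which 32 stayed within counting error of the reported value (within 1.5 times for a count, within 0.1 for a correlation), 25 moved and 2 reversed. Of 8 more, chosen after the data were seen, 4 moved. At q of 0.05 or less the short over long arm ratio reversed to 0.884 in Huh7 anti-HOXA13 (22 peaks) and moved to 0.603 in HepG2 anti-HOXA13. Counting peaks within 1 kb once gave 0.769 in the latter. The ratio of chromosome 20 to the median autosome at that q was 10.4 and 2.45 in HepG2 (anti-HOXA13, anti-HA) and 1.10 and 1.45 in Huh7. With strong peaks it was 1.34 and 1.5 in HepG2 and 1.00 in Huh7 anti-HOXA13, and reversed to 0.688 in Huh7 anti-HA, on 1 peak. Strong HepG2 anti-HA peaks without raised input had 1.22 per Mb on chromosome 20 and 1.86 on the other autosomes, against 3.61 and 2.65 with it. At equal list length the ratio to the median autosome was 11.1 and 1.59 in HepG2, and without raised input 4.12 in HepG2 anti-HA. At q of 0.05 or less, 15 of 830 HepG2 anti-HA peaks overlapped within HepG2 and 0 of 57 Huh7 anti-HA peaks within Huh7. Between the lines it was 21 of 57 Huh7 anti-HA peaks and 1 of 22 Huh7 anti-HOXA13 peaks. At equal list length the overlaps were, in the same order, 6 of 327, 1 of 283, 21 of 283 and 3 of 289. The shares over the whole lists at these settings, and at the overlap settings that follow, were not computed. Without raised input the anti-HA lists shared 18 of 688 Huh7 peaks. With at least 0.5 of the shorter peak overlapping, the anti-HOXA13 lists shared 6 of 289 Huh7 peaks. In bins of 0.5 and 2 Mb the Huh7 lists correlated with r of 0.54 and 0.81, and in bins of 2 Mb the anti-HA lists with -0.0495. From 53 to 61 Mb, the ratio at q of 0.05 or less was 3.39 and 1.18 in HepG2 and 0.751 in Huh7 anti-HA, and without raised input 2.54 in HepG2 anti-HA. Equal length gave no separate density for Huh7 anti-HOXA13, the shortest list. Why values moved or reversed was not tested. No paired analysis was possible because each condition had 1 library.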

Other observations

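Among the 17 autosomes whose short arm is not acrocentric, the size of the arm difference of chromosome 20 ranked 2 with anti-HOXA13 and 13 with anti-HA in HepG2. In Huh7 it ranked 3 with anti-HOXA13 and 4 with anti-HA. Chromosome 9 came first in both Huh7 lists with its long arm the denser, at a short over long arm ratio of 0.231 with anti-HOXA13 and 0.256 with anti-HA.

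The SD over the mean of the 1 Mb bin counts of chromosome 20 was 0.944 in HepG2 anti-HOXA13, 4 of 22 in rank, where the median autosome had 0.570. In HepG2 anti-HA it was 0.517 against 0.677, and ranked 19.

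HepG2 anti-HOXA13 peaks had a median width of 150 bp on chromosome 20 and 128 bp on the other autosomes. HepG2 anti-HA peaks had 187 and 196 bp.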
